A study of Mus musculus with 12 samples.

Results

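The genes described here encode the proteins of the cytosolic ribosome. They were all protein-coding mouse genes whose symbol starts with Rpl or Rps and a number, together with the stalk genes Rplp0 to Rplp2 and Rpsa, leaving out the Rps6k kinases, Rpl10l and processed pseudogenes. Of 50600 gene IDs in the count files, 85 were chosen in this way, 51 with large-subunit and 33 with small-subunit names. The remaining one, Rps19bp1, has a matching symbol but encodes a protein that binds Rps19. On a list of 8 paralogs, 7 are among the 85, and 77 genes remain without these and Rps19bp1, called core members below. Fau and Rack1, which also encode proteins of the ribosome, do not match by symbol.

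RNA-seq was performed on 12 mice, 3 per group. Control mice (Ctrl, 20 to 25 wk) carried the genotype DNMT1 fl/fl without Cre, and knockout mice (KO, 20 to 21 wk) carried DNMT1 fl/fl with CD4-CRE, which deletes the DNA methyltransferase gene in T cells. Tumor-bearing mice (ALK, 22 to 31 wk) expressed the human NPM-ALK fusion kinase from the Cd4 promoter and enhancer, and ALKKO mice (19 to 25 wk) combined NPM-ALK+ with DNMT1 fl/fl CD4-CRE. All mice had a mixed C57Bl/6xSV/129 background, and all were male except the animal of KO2, which is labelled female. ALK libraries were made from T cell lymphoma cells and the other 9 from thymocytes, so that the transgene and the lymphoma cannot be told apart in comparisons with Ctrl. The labels give the ALK mice no loxP allele.

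Each ribosome joins ribosomal RNA with a single copy of most of these proteins, so their genes are expressed together and at high levels in growing cells. Their mRNAs are short, abundant and start with a C followed by a run of pyrimidines, the 5′ terminal oligopyrimidine (TOP) motif, through which the kinase mTOR controls their translation. Transcription of many of these genes follows the transcription factor Myc. Ribosomal protein genes have left many processed pseudogenes in the mouse genome, and a read that matches a gene and a pseudogene equally well is counted for neither.

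The TOP letters are shown because they are what the mRNAs of this family have in common at their first base. RefSeq promoter sequences on GRCm38.p6 were matched by symbol for 65 of the 85 genes. A C followed by at least 4 pyrimidines (C or T) stood exactly at a listed start of 14 of them (21.5%), against 3.01% of all 27025 genes with an entry. An unbroken run of at least 8 pyrimidines on the coding strand within 30 bases of a start was found for 53.8% of the 65 and 25.8% of all genes. The following lines give 30 bases, with 10 bases before the start and 20 from it, and the pyrimidine run that begins at the start is in capitals.
Rpl14 (chr9:120571507-120571536, + strand): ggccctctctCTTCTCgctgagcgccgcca
Rpl15 (chr14:18270967-18270996, - strand): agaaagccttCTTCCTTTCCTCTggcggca
Rps18 (chr17:33955646-33955675, - strand): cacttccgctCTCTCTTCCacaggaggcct
Rps6 (chr4:86857348-86857377, - strand): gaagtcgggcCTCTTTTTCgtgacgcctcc
Rplp2 (chr7:141447641-141447670, + strand): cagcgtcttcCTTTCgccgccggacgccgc
Rps27 (chr3:90213629-90213658, - strand): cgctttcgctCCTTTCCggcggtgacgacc
The pattern is a match of letters at an annotated start, and starts that are annotated a few bases away are missed by it.

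Before the results, the samples were checked. Reads on genes numbered 12473857 to 18864327 per library. Alk was at 34.9 to 55.0 CPM (counts scaled to the size of each library) in the 6 libraries with the transgene and at 0.107 to 0.431 CPM in the others. Dnmt1 was at 204.8 to 244 CPM in KO and ALKKO and at 379 to 788 CPM in Ctrl and ALK. KO2 stood apart from the other KO libraries: its 6 T-cell markers summed to 2482 CPM against 5339 and 5448, its 5 B-cell markers to 1835 against 40.4 and 45.9, and its 6 myeloid markers to 2221 against 638 and 437. Itgam was the 1 marker at 0 in all libraries.

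Cytosolic ribosomal protein genes were higher in ALK tumor cells than in Ctrl thymocytes. Reads on the 85 genes made up 1.98%, 1.70% and 2.01% of all reads on genes in the ALK libraries, and 1.19%, 1.24% and 1.05% in the Ctrl libraries. The 3 KO libraries had 0.939%, 1.48% and 0.942%, and the 3 ALKKO libraries 0.885%, 1.12% and 1.11%. Every ALK library lay above all 9 thymocyte libraries, and KO2 was the highest of those 9. The mean share was 1.89% ± 0.170 (SD, n = 3) in ALK and 1.16% ± 0.0996 (SD, n = 3) in Ctrl, a ratio of 1.64. The exact two-sided permutation test gave p = 0.10 for ALK against each of Ctrl, KO and ALKKO, the smallest value that 3 against 3 mice allow, and 0.10 after Benjamini-Hochberg adjustment over the 3 tests. The 95% Wilson interval of a library's share reached at most 0.00755 percentage points to either side and covers counting error only. In such bulk samples, fewer cells of a type and less RNA per cell cannot be told apart. Alignments that were not unique and were left out of the counts were also more frequent in ALK, with 100.7 to 116 entries per 100 reads on genes against 75.5 to 83.6 in Ctrl, 69.8 to 91.4 in KO and 73.4 to 86.9 in ALKKO, and how many of them belong to these genes was not tested.

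**Figure D1:**
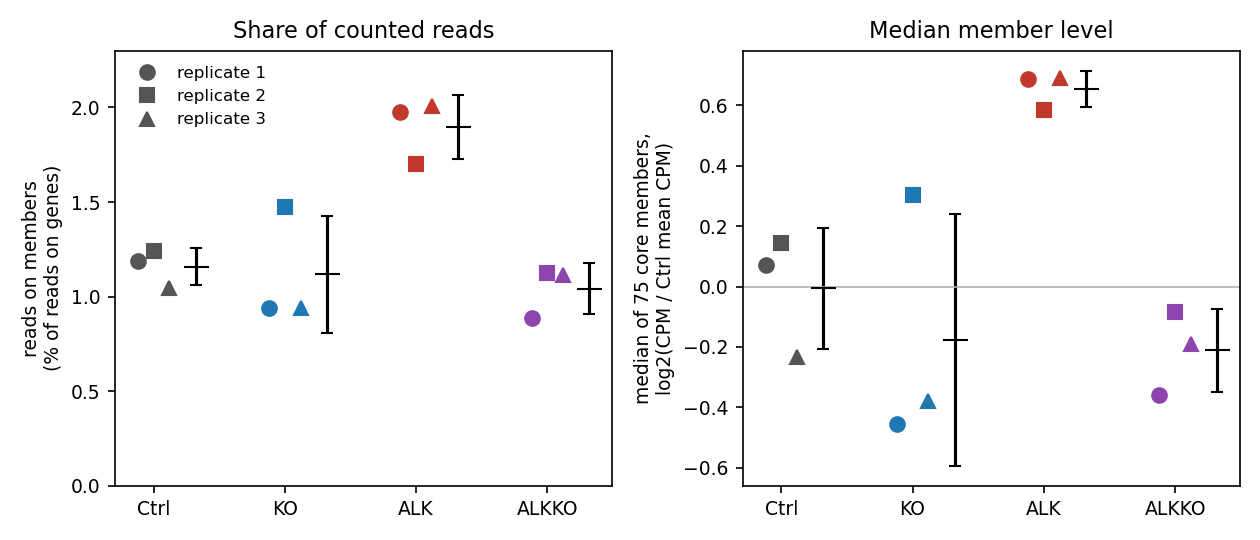
Left, reads on the 85 genes as a percentage of reads on genes in each library (y axis, linear from 0) by group. Right, the median over the 75 core members that were tested of the log2 ratio of each library's CPM to the gene's Ctrl mean, with 0.5 CPM added to both. Symbols are libraries by replicate number, and the bar beside each group is the mean ± SD of 3 libraries. The ALK libraries lie at 1.70% to 2.01%, above all others, and KO2 at 1.48% lies apart from KO1 and KO3.

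Of the 85 genes, 83 had enough counts to be tested. In ALK against Ctrl, 30 of the 83 were higher and 1 was lower at an adjusted p under 0.05 (edgeR quasi-likelihood test, adjusted over 16052 genes). The percentage called higher among all genes was 14.8%, against 36.1% of these 83, and 14.7% of all genes were called lower (29.5% in either direction). With the fold change limit of the study added (an absolute log2 fold change above 1), 11 remained, 10 of them higher, where 20.4% of all genes passed and 8.41% passed as higher. The median log2 fold change of the 83 was 0.63, against 0.05 over all genes. Of the 83 estimates, 78 were above 0, against 8427 of 16052 over all genes. The groups did not overlap, with ALK higher, for 58 of the 83, against 21.3% of all genes, and all 3 ALK libraries were above all 9 thymocyte libraries for 46 of the 83, against 13.1% of all genes. Between the subunits, 21 large-subunit genes (median 0.63 over 49) and 9 small-subunit genes (median 0.65 over 33) were called higher. The number of calls was sensitive to single libraries: it was 10 without Ctrl1, 15 without Ctrl2, 10 without Ctrl3 and 19 without ALK2 or without ALK3. Higher calls among all genes went from 2371 of 16052 to 1056 of 16577 without Ctrl1, 1295 of 16608 without Ctrl2 and 1349 of 16578 without Ctrl3. They were 1745 of 16581 without ALK2 and 2507 of 16571 without ALK3. The median of the 83 stayed at 0.55 to 0.70 with each library left out. All of these values are relative to the other genes. When libraries were scaled to the summed reads of these 85 genes themselves, none was called higher, and the median was -0.14 while that of all genes was -0.73.

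**Figure D2:**
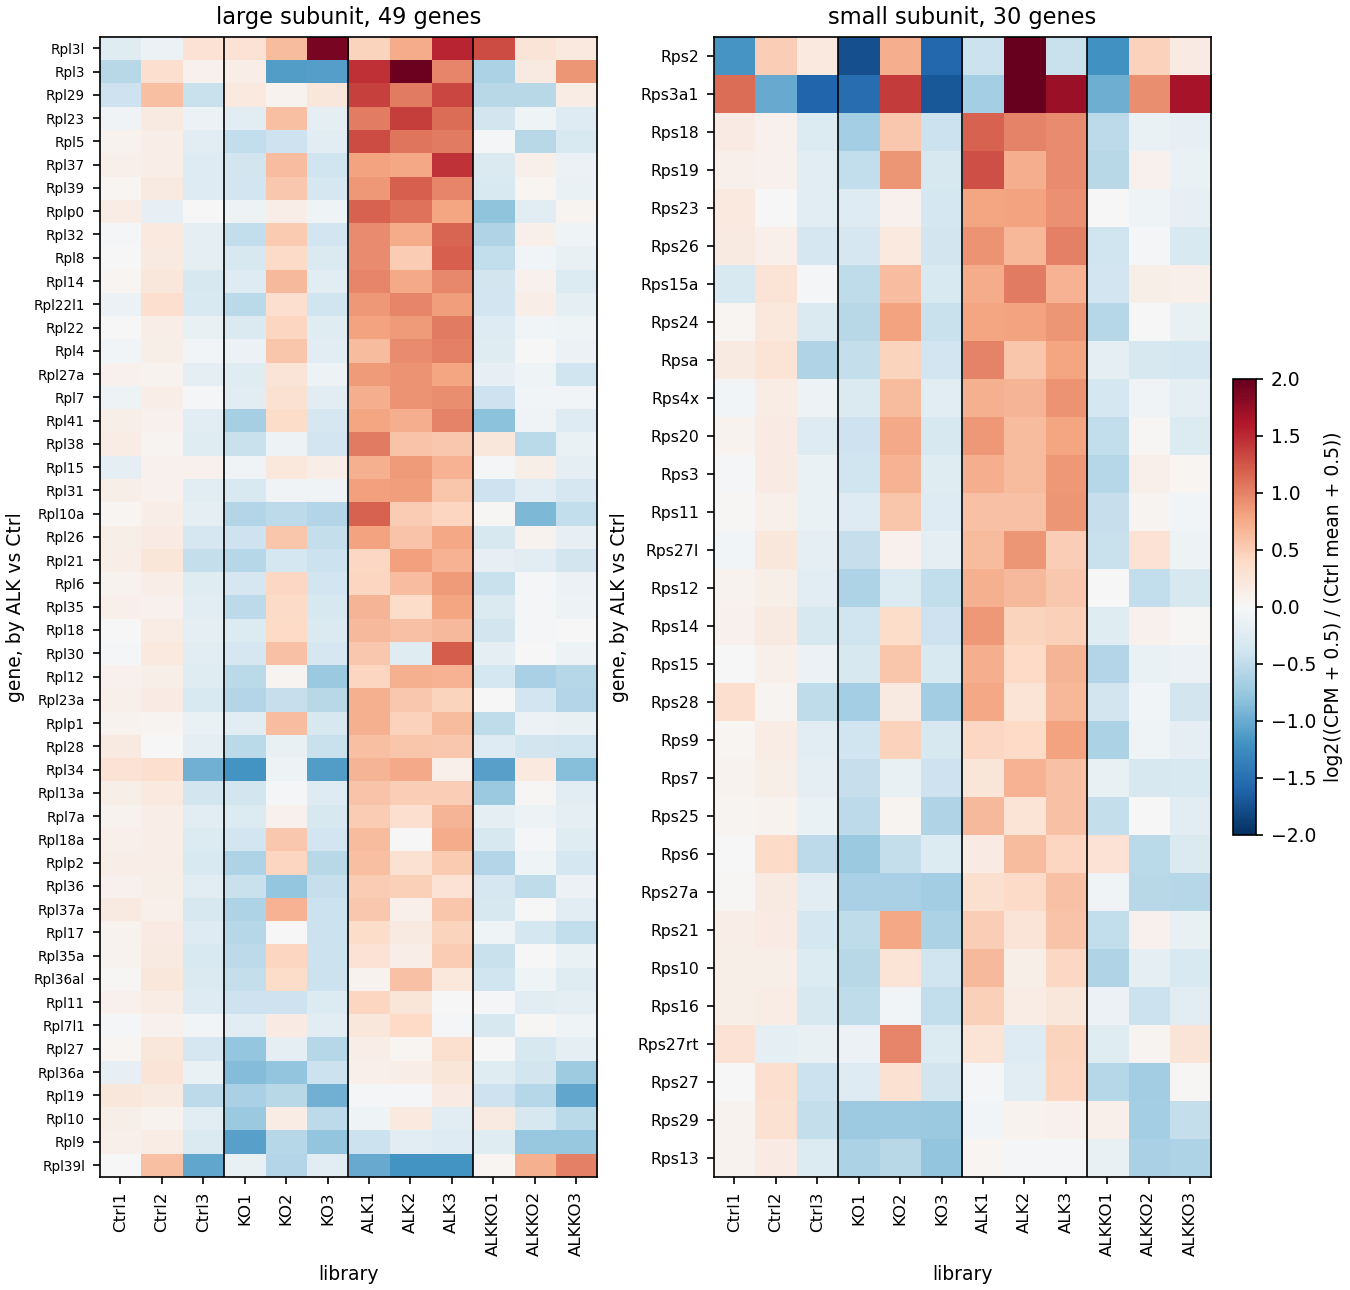
Tested members of the large subunit (left, 49 genes) and small subunit (right, 30 of the 33 genes) in the 12 libraries, ordered from top to bottom by the log2 fold change of ALK against Ctrl. Colors give log2 of the CPM over the gene's Ctrl mean, with 0.5 CPM added to both, and are capped at -2 and 2. The 3 ALK columns are red for most genes, KO1 and KO3 are blue for most, and KO2 is red for many, with Rps2, Rps3a1 and Rpl3 varying within groups.

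The clearest single genes were spread over both subunits. Rpl5 (chromosome 5, 107900502 to 107909005, + strand, GRCm38) encodes a protein that enters the ribosome bound to 5S ribosomal RNA and, outside it, inhibits Mdm2 together with Rpl11. Rpl5 was at 84.9, 72.0 and 70.4 CPM in ALK, at 35.6, 37.3 and 29.1 CPM in Ctrl, at 24.0, 25.5 and 29.3 CPM in KO and at 33.6, 23.0 and 27.4 CPM in ALKKO. The ALK libraries were all above 70 CPM and the others all under 38 CPM, a log2 fold change of 1.16 ± 0.18 (SE) against Ctrl with an adjusted p of 0.00154. Its partner Rpl11 was at 22.4, 19.6 and 16.6 CPM in ALK and at 17.5, 18.3 and 13.6 CPM in Ctrl, with overlapping groups and no call (log2 fold change 0.25 ± 0.20, adjusted p = 0.384). Only 6.16% of the 50-base stretches of the Rpl5 transcript are found in no other gene, and 46.6% of it lies opposite an exon of another gene on the other strand.

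Rpl23 (chromosome 11, 97777527 to 97782437, - strand), also known to inhibit Mdm2, was at 198, 255 and 214 CPM in ALK and at 92.8, 110.5 and 89.9 CPM in Ctrl. In ALKKO it was at 75.8, 91.8 and 81.7 CPM, and in KO at 84.6, 149 and 85.2 CPM with KO2 the highest. The ALK libraries lay above all 9 others, and the log2 fold change against Ctrl was 1.18 ± 0.22 (adjusted p = 0.00365).

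The stalk of the large subunit, made of Rplp0 and dimers of Rplp1 and Rplp2, recruits the elongation factors. Rplp0 was at 1507, 1406 and 1149 CPM in ALK, at 738, 591 and 662 CPM in Ctrl, at 616, 729 and 627 CPM in KO and at 378, 564 and 689.5 CPM in ALKKO. All ALK libraries were above all others, and the change against Ctrl was 1.03 ± 0.22 on the log2 scale (adjusted p = 0.00639). Rplp1 was at 952, 799.6 and 904 CPM in ALK against 609, 606 and 533 CPM in Ctrl. Rplp2 was at 253, 206 and 239 CPM in ALK against 183, 183 and 134 CPM in Ctrl. Both had groups that did not overlap and missed the threshold, with log2 fold changes of 0.60 ± 0.24 (adjusted p = 0.077) for Rplp1 and 0.48 ± 0.27 (adjusted p = 0.197) for Rplp2. In KO2, Rplp1 was at 895 CPM and Rplp2 at 224 CPM, within the range of ALK for both.

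Several members with known roles outside or on top of translation were chosen for description. Rps26, part of the mRNA exit channel, was at 224, 191 and 243 CPM in ALK and at 136, 129 and 95.3 CPM in Ctrl, and rose by 0.87 ± 0.20 on the log2 scale (adjusted p = 0.00949). Rps19, mutated in Diamond-Blackfan anemia, was at 379, 257 and 300.4 CPM in ALK and at 167, 164 and 135 CPM in Ctrl, with a log2 fold change of 1.01 ± 0.34 and an adjusted p of 0.0447. The groups of Rps19 did not overlap, but its call was lost in each fit that left out a library of either group (adjusted p 0.0605 to 0.137). Rps14, whose loss is known from the 5q- syndrome, was at 973, 729 and 744 CPM in ALK and at 568, 605 and 424 CPM in Ctrl (log2 fold change 0.61 ± 0.24, adjusted p = 0.075). Rps3, which also takes part in DNA repair, was at 1727, 1619.7 and 1892 CPM against 1010.1, 1161 and 948 CPM (0.75 ± 0.29, adjusted p = 0.0737), and Rpsa, the laminin receptor protein, had a log2 fold change of 0.80 ± 0.32 (adjusted p = 0.0778). For these 3 genes the groups did not overlap and the test was not passed. Rps6, the substrate of S6 kinase, was counted at 5.73 ± 1.89 CPM (SD, n = 3) in Ctrl and 7.86 ± 1.33 CPM in ALK with overlapping groups, and Rpl10 at 18.2 ± 2.27 CPM and 17.8 ± 2.71 CPM.

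**Figure D3:**
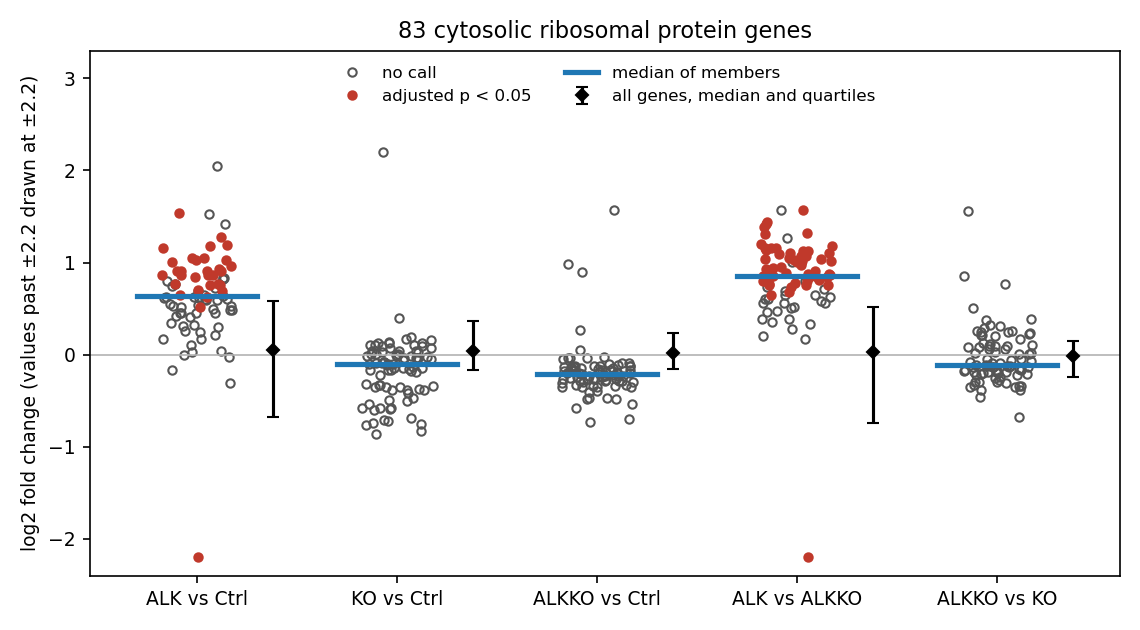
Log2 fold changes of the 83 tested members (circles, y axis) in each of 5 comparisons (x axis), with values past 2.2 in either direction drawn at that limit. Filled circles have an adjusted p under 0.05, blue lines are the medians of members, and black diamonds with bars are the median and quartiles of all 16052 genes. Most members lie above 0 in ALK against Ctrl and ALK against ALKKO, with medians of 0.63 and 0.85, and their medians lie between -0.21 and -0.11 in the others.

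The calls that held up in all 17 alternative fits of ALK against Ctrl other than the scaling to the family itself, with each library left out among them, were those of 9 genes, among them Rpl5, Rpl7, Rpl15, Rpl22, Rpl23, Rpl27a, Rplp0 and Rps26, a set read off after the fits. Their highest adjusted p in these fits was 0.0416, for Rps26. Rpl15 was at 62.7, 69.6 and 62.6 CPM in ALK and at 33.3, 40.6 and 40.8 CPM in Ctrl, and Rpl27a at 59.5, 61.6 and 56.9 CPM and at 34.6, 34.5 and 28.9 CPM. Both had replicates that differed by less than the gap between the groups. The largest estimates by rule were those of Rpl3l, Rpl3, Rps2, Rps3a1 and Rpl29. Rpl29 was at 41.5, 32.8 and 40.4 CPM in ALK and at 11.6, 24.1 and 11.4 CPM in Ctrl, and rose by 1.28 ± 0.32 on the log2 scale (adjusted p = 0.0142), a call lost without Ctrl1 (adjusted p = 0.0672) or Ctrl3 (adjusted p = 0.0564).

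At the other end, Rpl9, Rpl10 and Rps13 had estimates of -0.31, -0.03 and -0.01 and overlapping groups. Rpl9 was at 14.7, 17.1 and 16.6 CPM in ALK and at 21.5, 22.2 and 16.2 CPM in Ctrl. All 3 were counted at low levels for this family, and between 6.68% and 17.0% of their 50-base stretches are found in no other gene.

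Paralogs of ribosomal proteins can replace the parent in some ribosomes and tissues, and they did not move as one group. Rpl22 and its paralog Rpl22l1, of which Rpl22 is required for the development of alpha-beta T cells, rose together. Rpl22 was at 377, 388 and 447 CPM in ALK and at 217, 236 and 195 CPM in Ctrl (log2 fold change 0.90 ± 0.19, adjusted p = 0.00614). Rpl22l1 was at 51.9, 55.6 and 50.3 CPM in ALK and at 25.8, 35.8 and 22.6 CPM in Ctrl (0.91 ± 0.26, adjusted p = 0.0265), and its call was lost without Ctrl1, Ctrl3 or ALK2 (adjusted p 0.0724 to 0.101). The ratio of Rpl22l1 to Rpl22 was 0.113 to 0.143 in ALK and 0.116 to 0.152 in Ctrl, so that it overlapped between the groups. Since 28.8% of the Rpl22l1 transcript lies opposite an exon on the other strand, its counts are uncertain if strand was not used.

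Rpl39 and Rpl39l moved in opposite directions. Rpl39, which lines the exit tunnel, was at 85.3, 107 and 92.2 CPM in ALK and at 47.6, 52.9 and 38.8 CPM in Ctrl, and rose by 1.03 ± 0.25 on the log2 scale (adjusted p = 0.0117, and 0.0539 without Ctrl3). Rpl39l, known from male germ cells, had 1, 0 and 0 reads in ALK and 12, 23 and 1 reads in Ctrl. It was the 1 member called lower (adjusted p = 0.0248), at least 2.87-fold lower than in Ctrl when the floor of 3 counts per library is taken for ALK, although Ctrl3 overlapped with ALK. In ALKKO it had 11, 23 and 28 reads, which puts ALK at least 5.71-fold lower with no overlap, and in KO 10, 3 and 7 reads. Its call against Ctrl was lost without Ctrl1, Ctrl2, ALK2 or ALK3 (adjusted p 0.0573 to 0.0834).

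Rps27l, a target of p53, was at 54.3, 65.0 and 49.7 CPM in ALK and at 33.6, 40.9 and 30.5 CPM in Ctrl (0.69 ± 0.22, adjusted p = 0.0407), a call that was lost without any one of Ctrl1, Ctrl2, Ctrl3, ALK1 or ALK2 (adjusted p 0.0586 to 0.136). Its parent Rps27 was counted at 1.14 to 3.05 CPM over the 12 libraries, 1.35% of its 50-base stretches are found in no other gene, and Rps27rt is nearly the same in sequence. Rpl7l1, a protein of ribosome assembly, was at 117, 132 and 97.9 CPM in ALK and at 97.6, 106 and 96.5 CPM in Ctrl with no call (0.21 ± 0.15, adjusted p = 0.322), while Rpl7 was at 535, 602 and 618 CPM and at 299.5, 353 and 315 CPM and rose by 0.86 ± 0.17 (adjusted p = 0.0053). The ratio of Rpl7l1 to Rpl7 was 0.158 to 0.22 in ALK, below all other libraries, which lay at 0.281 to 0.331. Rpl36al (0.32 ± 0.28, adjusted p = 0.424) and Rpl36a (0.17 ± 0.31, adjusted p = 0.711) had overlapping groups.

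**Figure D4:**
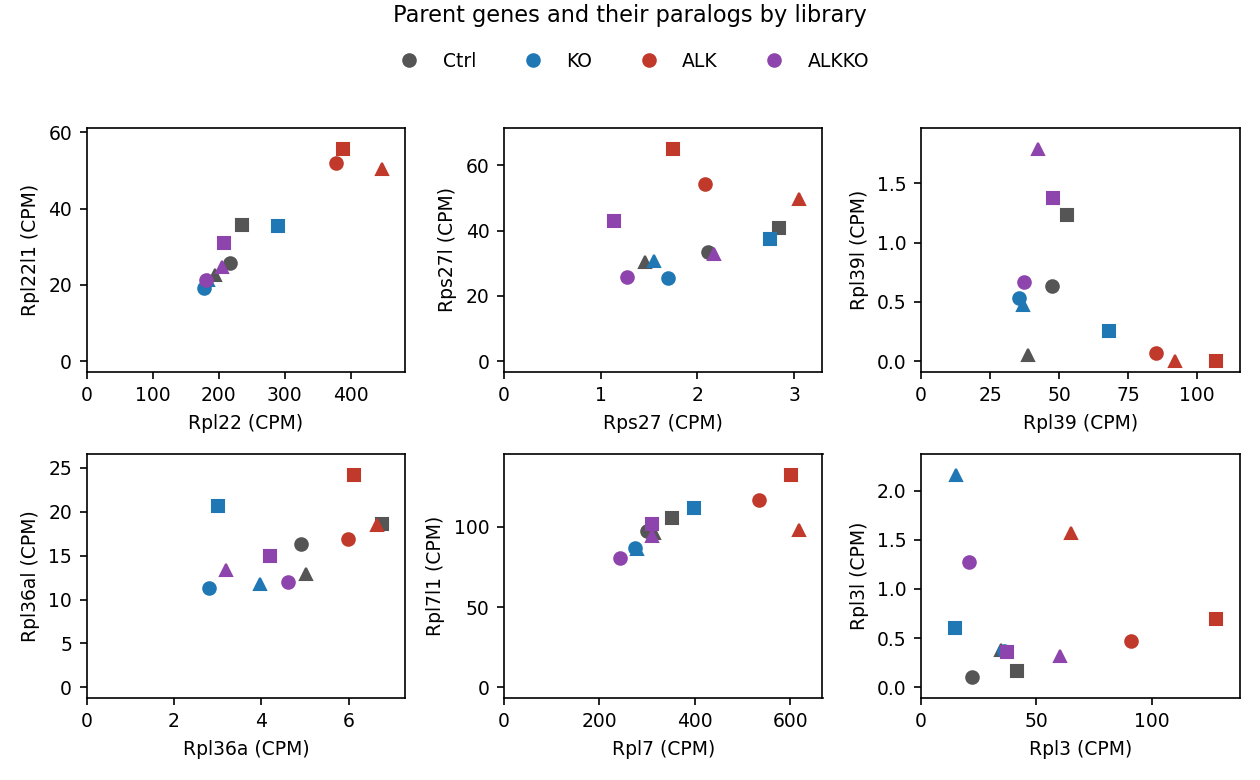
Levels of 6 parent genes (x axes, CPM) and their paralogs (y axes, CPM) in the 12 libraries, with groups in color and replicate numbers 1, 2 and 3 as circles, squares and triangles. Axes are linear and differ between panels. Rpl22l1 and Rpl22 are both highest in ALK, Rpl39l is at or near 0 in ALK where Rpl39 is highest, and Rpl7l1 overlaps between the groups where Rpl7 does not.

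A few members varied widely within groups. Rps3a1 was at 56.4, 12.5 and 8.19 CPM in Ctrl, at 8.64, 68.7 and 7.62 CPM in KO, at 15.9, 104 and 86.4 CPM in ALK and at 12.8, 49.4 and 81.5 CPM in ALKKO, and its log2 fold change of 1.41 in ALK against Ctrl had an adjusted p of 0.348. Rps2 was at 93.5 CPM in ALK2 and at 3.50 to 21.8 CPM in the other 11 libraries, and without ALK2 the sign of its estimate turned from 1.53 to -0.47. These 2 were the only core members with a range of over 4-fold between the libraries of at least 1 group, against a median highest-to-lowest ratio of 1.33 in Ctrl, 1.74 in KO, 1.25 in ALK and 1.35 in ALKKO. Rpl3 forms part of the peptidyl transferase center. It was at 90.8, 128 and 65.1 CPM in ALK and at 22.1, 41.4 and 34.5 CPM in Ctrl, without overlap. Its rise of 1.53 ± 0.47 (adjusted p = 0.032) was lost without ALK2 or any Ctrl library (adjusted p 0.0593 to 0.12). Rpl34, named after its values were seen, was at 65.7 to 83.5 CPM in Ctrl3, KO1, KO3, ALKKO1 and ALKKO3 and at 141 to 256 CPM in the other 7 libraries.

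Among the ALK libraries, Rpl30 was at 114, 66.3 and 182 CPM, Rpl37 at 142, 139.5 and 222 CPM and Rpl8 at 1903, 1407 and 2258 CPM, each highest in ALK3. These genes and Rpl3 are the core members on chromosome 15, which was singled out after the values were seen. Unlike the others, Rpl3 was lowest in ALK3, at 90.8, 128 and 65.1 CPM in ALK1, ALK2 and ALK3. Over 472 genes of chromosome 15 with a mean of at least 5 CPM, the median log2 ratio to the Ctrl mean was 0.48 in ALK3, the highest of all chromosomes examined in that library, and 0.07 in ALK1 and 0.01 in ALK2. The copy number of chromosome 15 was not measured here. The log2 fold change of Rpl37 was 1.05 (adjusted p = 0.022) and 0.78 without ALK3 (adjusted p = 0.0646), and its call was also lost without any 1 Ctrl library (adjusted p 0.0548 to 0.0839).

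In thymocytes with deleted Dnmt1, no member passed the test. None of the 83 was called in KO against Ctrl (0.0187% of all genes were), with 9 at an unadjusted p under 0.05 (5.52% of all genes), and DESeq2 also called 0. For none were all KO libraries above all Ctrl libraries, an order that 6.19% of all genes had. The median log2 fold change was -0.11 (all genes 0.04), and its size depended on single KO libraries. KO1 and KO3 were both below every Ctrl library for 64 of the 83 genes, against 11.8% of all genes, while KO2 was above every Ctrl library for 46 of the 83, against 40.2% of all genes. The median was -0.40 without KO2, 0.0075 without KO1 and -0.017 without KO3, and no member was called in any of these fits. KO2 is also the library with the high B-cell and myeloid markers and the low T-cell markers given above, and its 5 proliferation markers summed to 1011 CPM against 2003 in KO1 and 2259 in KO3. The 5 erythroid markers summed to 2426 CPM in KO2, 1671 in KO3 and 254 in KO1. The KO2 animal was the only female, and the part of each of these in the difference was not tested. Rps19, among the 5 members with the highest estimates, was at 109.8, 286 and 124 CPM in KO against 167, 164 and 135 CPM in Ctrl, so that the log2 fold change was 0.16 with KO2 and -0.40 without it.

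The 12 members for which all 3 KO libraries were below all 3 Ctrl libraries included Rpl9, Rpl10a, Rpl11, Rpl19, Rpl23a, Rpl36, Rpl36a, Rps12, Rps13, Rps27a and Rps29, where 6.24% of all genes had such an order. They were listed after their values were seen. Rpl9 was at 9.12, 13.3 and 11.3 CPM in KO (log2 fold change -0.83 ± 0.25, unadjusted p = 0.00642, adjusted p = 0.864), and Rps29 at 2.07, 2.07 and 2.02 CPM against 3.96, 4.72 and 2.53 CPM in Ctrl (-0.86 ± 0.37, adjusted p = 0.864). Their mean levels over all libraries were 3.13 to 40.9 CPM, and for all but Rps29 between 6.68% and 37.8% of the 50-base stretches are found in no other gene.

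ALKKO cells, which carry NPM-ALK and are labelled as thymocytes, did not show the higher levels of ALK. In ALKKO against Ctrl none of the 83 was called (0.187% of all genes were), with 4 at an unadjusted p under 0.05 (3.18% of all genes) and 0 by DESeq2. The estimates were nonetheless shifted to one side, with 78 of 83 below 0, against 7663 of 16052 over all genes. These 83 estimates share the same libraries and are not independent. Their median was -0.21 (all genes 0.01) and stayed between -0.32 and -0.13 with each library left out. Myeloid markers summed to 557 to 605 CPM in ALKKO and 416 to 507 CPM in Ctrl without overlap, and erythroid markers to 150.2, 1905 and 1845 CPM in ALKKO and 388 to 584 CPM in Ctrl, and their part in the shift was not tested. The ALKKO libraries were all below the Ctrl libraries for 5 of the 83, where 7.56% of all genes had that order, and above them for none (9.92% of all genes). Against KO none was called by edgeR (0.00623% of all genes were) or by DESeq2, none had an unadjusted p under 0.05 (2.69% of all genes), and 4 had all ALKKO libraries above all KO libraries (4.09% of all genes). The median of -0.11 turned to 0.21 without KO2. Among the 5 lowest estimates against Ctrl were those of Rpl19 (-0.69 ± 0.31), Rpl9 (-0.58 ± 0.24), Rpl12 (-0.53 ± 0.22) and Rps27 (-0.48 ± 0.44), each with an adjusted p of 0.9998. Rpl12 was at 22.2, 17.9 and 19.0 CPM in ALKKO against 30.4, 30.9 and 24.0 CPM in Ctrl, with no overlap.

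In ALK against ALKKO, which compares lymphoma cells with transgenic thymocytes that lack Dnmt1, 54 of the 83 were higher and 1, Rpl39l, was lower, where 13.4% and 14.7% of all genes were called. With the fold change limit added, 26 were higher, against 7.03% of all genes. The median log2 fold change was 0.85 (all genes 0.03), and 82 of 83 estimates were above 0, against 8276 of 16052 over all genes. With each library left out, 25 to 42 were called, among them 28 without ALKKO1, 34 without ALKKO2 and 25 without ALKKO3. Higher calls among all genes went from 2150 of 16052 to 1173 of 16544, 1201 of 16542 and 1064 of 16654 in these 3 fits. Both comparisons of ALK use the same ALK libraries, so they are no separate evidence for one another.

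The difference between ALK minus Ctrl and ALKKO minus KO was tested directly. Only the ALK libraries are from lymphoma cells, so Dnmt1 status and the lymphoma cannot be told apart in this difference. The difference passed an adjusted p of 0.05 for 11 of 83 members, where 10.3% of all genes passed. ALK minus Ctrl was the larger for 10 of them (4.29% of all genes), with differences of 0.89 to 1.74 on the log2 scale. Among these were Rpl4, Rpl5, Rpl7, Rpl15, Rpl22, Rpl23, Rpl27a, Rpl29 and Rplp0, and the reverse held for Rpl39l (5.97% of all genes). The median difference was 0.69 for members and 0.08 for all genes. The count was 0 without Ctrl1, 2 without Ctrl2, 3 without Ctrl3, ALK2 or any 1 ALKKO library, 6 without KO3, and 10 to 13 without KO1, KO2, ALK1 or ALK3, and the median difference without KO2 was 0.42. Over all genes, the number that passed in these fits ranged from 574 of 16577 without Ctrl1 to 2573 of 16623 without ALK1. It was 1840 of 16573 without KO2.

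How far a gene's reads can be told from its copies differed widely between members. Over the 85 genes, a median of 45.5% of the 50-base stretches of the principal transcript were found in no other annotated gene, from 1.35% for Rps27 to all stretches for 4 genes. Rpl13, with no read in any library, and Rpl24, with 1 read in 1 library, were the 2 genes not tested. For Rpl24, 71.5% of the transcript lies in an exon of another gene on the same strand, and for Rpl13 19.7% of the stretches are unique. The 37 genes that were at least 50% unique had a median log2 fold change of 0.75 in ALK against Ctrl with 14 higher calls, and the 46 tested genes under 50% had a median of 0.60 with 16. Across the 83 tested genes, the rank correlation of uniqueness with that fold change was 0.22, as a description over genes that share the same libraries.

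**Figure D5:**
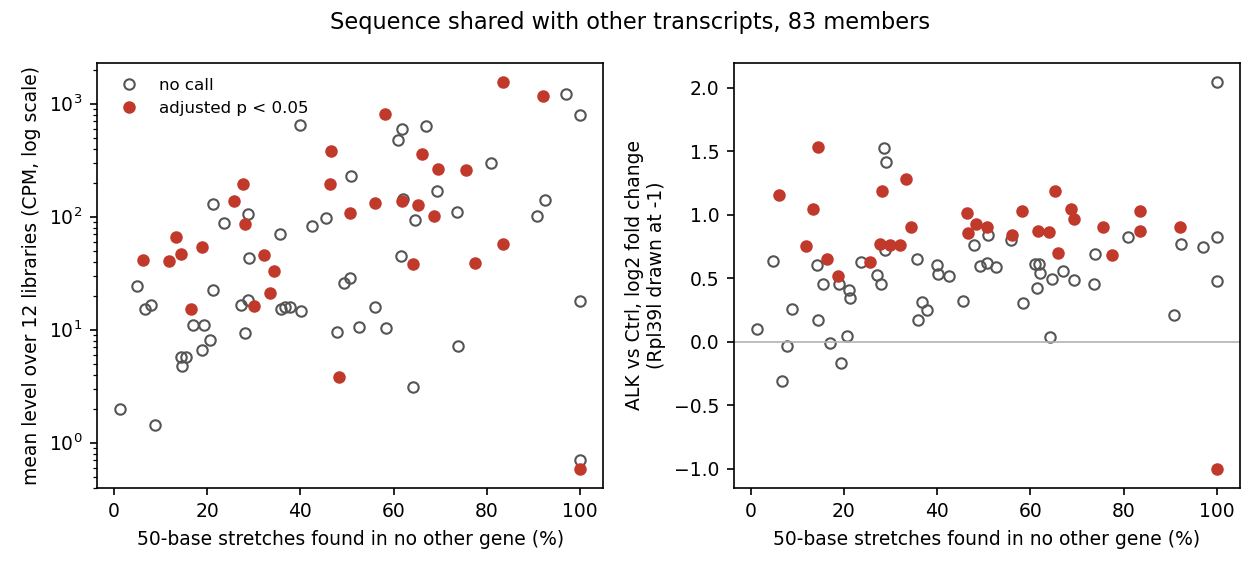
Percentage of 50-base stretches of each tested member's principal transcript that are found in no other annotated gene (x axes) against its mean CPM over the 12 libraries (left, log scale) and its log2 fold change in ALK against Ctrl (right, with Rpl39l drawn at -1). Filled circles have an adjusted p under 0.05. Members with less unique sequence tend to be counted at lower levels, and estimates above 0 occur over the whole range.

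The level of a member also went with the order of libraries within a group. ALKKO1 was the lowest of the 3 ALKKO libraries for 44 of the 48 tested members that averaged 30 CPM or more (36.8% of all genes), and the highest of the 3 for 23 of the 35 with a lower mean (34.8% of all genes), a limit set after the values were seen. Rps3 is an example of the first kind, at 697, 1113 and 1073 CPM, and Rpl10 of the second, at 20.6, 14.5 and 12.3 CPM. KO2 was above both other KO libraries for 46 of the 48 and for 24 of the 35, against 40.8% of all genes. ALKKO1 is also the ALKKO library with the low erythroid markers given above. The median unique percentage was 59.6% in the first class and 30% in the second, and the part of either in the order was not tested.

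The genes with the TOP letters at an annotated start did not stand out within the family. All 14 had estimates above 0 in ALK against Ctrl, with a median of 0.54 and 3 higher calls (Rpl14, Rpl15 and Rps18, shown above). The 49 tested members with a promoter entry and without the letters had a median of 0.65 with 20 higher calls.

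Genes outside the family were counted from lists, to be read against the 14.8% of all genes called higher and 14.7% called lower in ALK than in Ctrl. Of 23 other genes known for TOP mRNAs or hosted snoRNAs, 17 were higher in ALK than in Ctrl and none lower, with a median log2 fold change of 0.81. These included the elongation factor Eef2 (0.81 ± 0.20, adjusted p = 0.0139), the poly(A)-binding protein gene Pabpc1 (1.06 ± 0.25, adjusted p = 0.0107) and the snoRNA host Gas5 (1.05 ± 0.20, adjusted p = 0.00408), while Tpt1 was at -0.18 ± 0.20 (adjusted p = 0.529). Of the 10 chaperones and assembly factors of ribosomal proteins, 5 were higher, among them Grwd1, the chaperone of Rpl3 (1.05 ± 0.20, adjusted p = 0.00376), and Tsr2, that of Rps26 (0.98 ± 0.19, adjusted p = 0.00417), and 1 was lower, Sbds (-0.38 ± 0.13, adjusted p = 0.0481). Of 75 tested genes for mitochondrial ribosomal proteins, which make a separate ribosome, 22 were higher and 0 lower, with a median of 0.35. In KO and ALKKO against Ctrl no gene of these 3 lists was called. Rack1, a protein of the small subunit with another kind of name, was at 2107, 1912 and 2124 CPM in ALK and at 1306, 1474 and 1139 CPM in Ctrl without a call (0.65 ± 0.23, adjusted p = 0.0577), and Fau was at 3.70 to 7.34 CPM throughout.

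Myc was at 244, 276 and 217 CPM in ALK and at 69.8, 75.8 and 77.4 CPM in Ctrl, and at 55.6 to 94.2 CPM in KO and ALKKO. Its groups were apart in the same way as those of Rpl5 and Rpl23, with a log2 fold change of 1.72 ± 0.21 (adjusted p = 0.000553). The 5 proliferation markers summed to 1570, 3315 and 3582 CPM in the ALK libraries in ascending order and to 1934 to 2390 CPM in Ctrl, so that those groups overlapped. The 6 T-cell markers summed to 2977 to 4052 CPM in ALK and to 5159 to 6689 CPM in Ctrl. Estimates were below 0 for 5 of the 6, and 1, Cd3g, was called lower. The exception was Cd2, at 1.88, 394 and 394 CPM in ALK and at 156 to 179 CPM in Ctrl. In ALK and Ctrl, the 5 B-cell markers summed to 2.27 to 8.76 and 45.3 to 81.6 CPM, and the 8 markers of stroma and epithelium to 979 to 1886 and 748 to 825 CPM. Of these 8, the collagen genes Col1a1 and Col3a1 and the mural cell gene Pdgfrb were called higher in ALK, and the thymic epithelial genes Krt8 and Foxn1 lower. The part of these differences in the higher levels of the ribosomal protein genes was not tested.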

How the data were processed

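RNA-seq of 12 mice in 4 groups of 3 was analysed, grouped by the labels. The authors prepared stranded poly(A) libraries, sequenced single-end reads of 50 nucleotides, trimmed them with Trim Galore, aligned them to mm10 with STAR and deposited raw HTSeq counts per gene, without normalization. Versions and the strand setting are not given in the sources used here, except for Picard 2.19.2. Reads that align to several places are in no gene's count, which lowers genes with pseudogenes, so differences were tested within a gene only, and mean CPM serves between genes only to sort them by how many reads they received. Of 50600 IDs, 50376 were matched to GENCODE M21 on GRCm38.

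Counts were tested with edgeR 4.0.16 (TMM, filterByExpr, 1 term per group over 12 libraries, glmQLFit with robust estimation, glmQLFTest, Benjamini-Hochberg over 16052 genes), and the threshold for a call was an adjusted p under 0.05. CPM are normalized by TMM. Standard errors come from the F statistic. DESeq2 1.42.0, other scalings and filters, covariates, the replicate block and each library left out were alternatives. A floor of 3 counts equals 0.159 to 0.241 CPM. Shares were compared with an exact permutation test. Replicates of a group all differed by more than sampling noise (14.6 to 225.9 chi-square units for each degree of freedom). Uniqueness was computed from 50-base stretches of each principal transcript against all annotated transcripts. On counts simulated for ALK against Ctrl over 16052 genes, edgeR recovered 48% of 100 genes changed by a log2 fold of 2 and 10% of 100 changed by 1, with 1 other call. DESeq2 recovered 69% and 31% on the same counts, with 59 other calls. Fixed named genes were the paralogs and their parents, the stalk, Rpl5, Rpl11 and 8 members with known other roles, and then the 5 largest and 5 smallest estimates among members in ALK, KO and ALKKO against Ctrl. A few genes are counted but not reported here by name. The members and lists were chosen with earlier results of these data known. Whether replicates came from separate litters is not stated.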

Additional observations from a re-analysis of the deposited data

Results flagged for a closer look

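Alignments that were not unique, which enter no gene's count, numbered 115.9, 100.7 and 105 per 100 reads on genes in ALK1, ALK2 and ALK3, above the highest Ctrl library at 83.6 and the highest of the 9 thymocyte libraries, KO2, at 91.4. Chance alone sets 3 libraries above 3 others in some measures, and this one was not tested.

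ALK minus Ctrl differed from ALKKO minus KO, by the test of the difference itself, for 11 of 83 ribosomal protein genes. The test was passed by 10.3% of all genes. Dnmt1 status and the lymphoma cannot be told apart in this test. With 1 library left out the count of members was 0 to 13, with 0 without Ctrl1, 2 without Ctrl2, 3 without Ctrl3, ALK2 or any 1 ALKKO library and 6 without KO3. Over all genes it ranged from 574 of 16577 without Ctrl1 to 2573 of 16623 without ALK1. The members named in this report follow. ALK minus Ctrl exceeded ALKKO minus KO on the log2 scale by 1.54 for Rpl23 (adjusted p = 0.015), 1.07 for Rpl27a, 0.89 for Rpl15, 1.06 for Rpl5, 1.30 for Rplp0, 0.996 for Rpl7, 1.04 for Rpl22, 1.74 for Rpl29 and 1.11 for Rpl4 (adjusted p = 0.043). The difference was -5.86 for Rpl39l, a fitted value that depends on the prior count since ALK had 1 read in all.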

How the results depend on the processing

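In ALK against Ctrl, 31 members were called in either direction and the median log2 fold change was 0.63. Scaled to the summed members, 2 were called, both lower, and the median was -0.14. With labelled age as a covariate 19 were called. Of the 37 members that are at least 50% unique 15 were called. Of all 83 tested members, 11 passed with the fold limit added. In ALK against ALKKO the corresponding counts were 55, then 2 (median -0.12), 35, 28 of the 37 and 27 of the 83. In ALK against Ctrl, 42 members were called by DESeq2, 45 with sex as a covariate and 35 with only the 2 groups fitted. Fewer were called with DESeq2 size factors (27), upper-quartile factors (24), no low-count filter (21) or at least 10 counts in every library (22). Among all genes, 2932 were higher by DESeq2 and 2685 with sex as a covariate, against 2371 of 16052 in the main fit. With only the 2 groups fitted, 1539 of 15020 were higher, and with labelled age 2096 of 16052. DESeq2 size factors gave 2192 of 16052 and upper-quartile factors 1844 of 16052. The 2 other filters gave 1686 of 28141 (no low-count filter) and 1750 of 11930 (at least 10 counts). Scaling to members also gave a median of -0.012 in ALKKO against Ctrl. With sex as a covariate, or without KO2, the only female, the median was -0.41 or -0.40 in KO against Ctrl and 0.21 in ALKKO against KO. With each library left out, 10 to 25 members were called in ALK against Ctrl (median 0.55 to 0.70) and 25 to 42 in ALK against ALKKO (median 0.79 to 0.92). Higher calls among all genes ranged from 1056 to 2659 and from 1064 to 2466 in these fits. No member was called in the other 3 comparisons (medians -0.40 to 0.0075, -0.32 to -0.13 and -0.23 to 0.21). For the difference between ALK minus Ctrl and ALKKO minus KO, 0 to 13 were called. The gap in share between ALK and Ctrl was 0.736 percentage points and 0.679 to 0.833 with a library left out. The median of members minus that of all genes was 0.59 in ALK against Ctrl under each of the 6 scalings tried. A change of scaling moves all genes by nearly the same amount, so this gap could hardly change and is no test of the result. Upper-quartile scaling moved the all-gene median from 0.05 to -0.06 in ALK against Ctrl, and in ALK against ALKKO it turned the split of all calls from 2150 higher and 2356 lower to 1567 and 2658.

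The replicate block called 30 members in ALK against Ctrl and 50 in ALK against ALKKO. Among all genes, 1983 and 1805 of 16052 were called higher with it. The block ended the calls of Rpl3, Rpl39l, Rps12 and Rps23. The labels do not say that a number marks a shared litter or day. Of 18 same-numbered pairs, 4 had deviations correlated over 0.1 (-0.19 to 0.513). These were Ctrl1 with KO1 (0.267), Ctrl1 with ALKKO1 (0.310), KO1 with ALKKO1 (0.513) and KO2 with ALKKO2 (0.268). Pairs with unlike numbers reached 0.318, for Ctrl3 with ALKKO2. Whether same-numbered samples share more than a number is not known.

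Scaling to members moved the median of all genes in ALK against Ctrl from 0.05 to -0.73, and estimates under that shift turned sign with it. Values were then -0.52 for Rpl11, -0.60 for Rpl36a, -0.44 for Rpl36al, -0.56 for Rpl7l1, -0.18 for Rplp1, -0.29 for Rplp2, -0.15 for Rps14, -0.66 for Rps27, -0.076 for Rps27l, -0.54 for Rps27rt, -0.031 for Rps3, -0.012 for Rps4x and -0.29 for Rps6. Rps13 was at 0.0025 with the block and Rps27 at -0.0041 with age. With each library left out, other signs turned. Values ranged from -0.18 to 0.046 for Rpl10, -0.13 to 0.065 for Rps13, -0.47 to 1.99 for Rps2 and -0.17 to 0.34 for Rps27. In ALKKO against Ctrl they ranged from -0.18 to 0.57 for Rpl3 and -0.13 to 0.29 for Rps27rt. In KO against Ctrl they ranged from -0.026 to 0.60 for Rpl29, -0.40 to 0.39 for Rps19 and -0.27 to 0.67 for Rps27rt, and with sex as a covariate they were -0.41 for Rps19 and -0.27 for Rps27rt. The cause was not tested. Depth limits Rpl39l, Rpl3l, Rps27 and Rps27rt, with at most 53 reads a library.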

Other observations

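Rpl3l, a paralog expressed in muscle, had 2, 3 and 7 reads in the Ctrl libraries, 7, 7 and 32 in KO, 7, 8 and 20 in ALK and 21, 6 and 5 in ALKKO. Its highest library in each of the last 3 groups held at least 20 reads, and no comparison called it.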
